A study of Mus musculus with 12 samples.

Results

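The genes described are 10 histone acetyltransferases and methyltransferases of the NanoString® Mouse PanCancer Pathways panel, chosen by name from the 770 genes of the panel, by a rule that uses no measured value. They are *Crebbp*, *Ep300*, *Kat2b*, *Kmt2c*, *Kmt2d*, *Setd2*, *Nsd1*, *Whsc1*, *Whsc1l1* and *Ezh2*, and all 10 stood above the detection floor in all 12 samples. The samples form 4 groups of 3 replicates: AKT Cre/NRAS cells with *Dusp4* siRNA, AKT Cre/NRAS cells with SCR (a control siRNA pool), AKT/NRAS cells with *Dusp4* siRNA and AKT/NRAS cells with SCR. AKT/NRAS is a mouse hepatocellular carcinoma line, grown from a tumour that arose after AKT and NRAS constructs had been injected hydrodynamically, and AKT Cre/NRAS cells derive from it, Cre having deleted the AKT construct. The NRAS construct is thus shared by every group, and each line is a single culture lineage, so a difference between lines is a difference between 2 lines and not between many independent deletions. The study used the comparison to ask what loss of *Dusp4*, a phosphatase that dephosphorylates ERK and other MAP kinases, does to transcripts in liver cancer cells with and without AKT.

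Histone acetyltransferases transfer acetyl groups to lysines of histone tails, a mark of active enhancers and promoters. *Crebbp* and *Ep300* encode the paralogous coactivators CBP and p300, and *Kat2b* encodes PCAF, the acetyltransferase of a SAGA-type coactivator complex. The histone methyltransferases differ in the mark they write. *Kmt2c* and *Kmt2d* encode the MLL3 and MLL4 enzymes of the COMPASS-like complexes that monomethylate histone H3 at enhancers, *Setd2* encodes the enzyme that trimethylates histone H3 along transcribed gene bodies, and *Nsd1*, *Whsc1* (now *Nsd2*) and *Whsc1l1* (now *Nsd3*) encode the 3 NSD enzymes, which dimethylate histone H3. *Ezh2* encodes the catalytic subunit of Polycomb repressive complex 2, which writes a repressive mark on histone H3 and is best known for high levels in proliferating cells. Several of these genes are recurrently mutated in human cancers, including carcinomas of the liver.

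Promoter windows of 300 bases, from 250 before to 50 after an annotated start, were taken from RefSeq on GRCm38.p6 for the genes that had an entry, which were 7 of the 10 (*Nsd1*, *Whsc1* and *Whsc1l1* had none). The windows of *Crebbp*, *Ep300*, *Kmt2c*, *Setd2* and *Ezh2* are shown because, as given below, 4 of these genes rose with *Dusp4* siRNA in AKT Cre/NRAS cells under at least 6 of 8 scalings and *Ezh2* did not. Capitals mark matches on either strand to GC box letters (GGGCGG), to CCAAT box letters and to E2F-type letters, with overlapping matches counted separately. The E2F-type letters searched for were TTTGGCGC. The same letters with C in place of G at the first, the second or both of the G next to TTT were searched for too.
Crebbp (chr16:4213355-4213654, minus strand): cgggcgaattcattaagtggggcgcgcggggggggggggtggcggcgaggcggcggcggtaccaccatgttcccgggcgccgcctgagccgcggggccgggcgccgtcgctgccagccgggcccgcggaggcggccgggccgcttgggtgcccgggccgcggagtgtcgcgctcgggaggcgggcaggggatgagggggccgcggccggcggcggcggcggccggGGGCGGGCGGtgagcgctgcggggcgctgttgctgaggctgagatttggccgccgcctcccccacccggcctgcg
Ep300 (chr15:81585964-81586263, plus strand): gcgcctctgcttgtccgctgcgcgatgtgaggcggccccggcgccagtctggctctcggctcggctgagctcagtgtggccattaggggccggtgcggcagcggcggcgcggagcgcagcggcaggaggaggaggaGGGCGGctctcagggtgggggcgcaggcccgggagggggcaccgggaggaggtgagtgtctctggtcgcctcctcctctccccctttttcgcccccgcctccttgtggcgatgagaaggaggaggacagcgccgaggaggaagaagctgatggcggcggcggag
Kmt2c (chr5:25498734-25499033, minus strand): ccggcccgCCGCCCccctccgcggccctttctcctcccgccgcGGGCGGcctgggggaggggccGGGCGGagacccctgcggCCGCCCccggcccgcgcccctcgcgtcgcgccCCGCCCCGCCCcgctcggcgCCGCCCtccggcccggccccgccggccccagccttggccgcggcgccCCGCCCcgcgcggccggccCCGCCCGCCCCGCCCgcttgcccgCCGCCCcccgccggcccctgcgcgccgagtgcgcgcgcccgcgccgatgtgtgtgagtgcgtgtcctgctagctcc
Setd2 (chr9:110532347-110532646, plus strand): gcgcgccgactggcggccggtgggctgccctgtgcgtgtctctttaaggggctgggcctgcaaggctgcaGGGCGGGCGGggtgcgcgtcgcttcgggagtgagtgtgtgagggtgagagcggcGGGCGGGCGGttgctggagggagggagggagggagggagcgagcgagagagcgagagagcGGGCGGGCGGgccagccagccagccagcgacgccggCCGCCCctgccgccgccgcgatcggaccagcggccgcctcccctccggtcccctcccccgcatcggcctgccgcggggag
Ezh2 (chr6:47594981-47595280, minus strand): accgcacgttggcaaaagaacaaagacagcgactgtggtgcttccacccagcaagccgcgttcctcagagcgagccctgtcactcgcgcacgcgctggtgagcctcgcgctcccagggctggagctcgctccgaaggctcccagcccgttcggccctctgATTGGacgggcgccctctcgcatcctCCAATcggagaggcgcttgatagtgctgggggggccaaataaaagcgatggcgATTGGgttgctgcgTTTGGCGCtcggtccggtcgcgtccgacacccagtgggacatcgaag
The GC box letters occurred 2 times in the window of *Crebbp*, 1 time in that of *Ep300*, 12 times in that of *Kmt2c*, 4 times in that of *Kmt2d* and 7 times in that of *Setd2*, and 35.7% of 32851 promoter windows of this length held them. The window of *Ezh2* held no GC box, but 3 CCAAT letters (present in 37.4% of windows) and 1 E2F-type match (2.26% of windows). Neither window of *Kat2b* held a GC box, and 1 of its 2 windows held CCAAT. The G and C content was 82.0% for *Crebbp*, 72.3% for *Ep300*, 88.0% for *Kmt2c*, 62.7% for *Kmt2d*, 77.3% for *Setd2*, 64.3% for *Ezh2*, and 47.0% and 48.3% for the windows of *Kat2b*, against a median of 52.7% over all windows. Matches to CRE (TGACGTCA), ETS-type (ACCGGAAG) letters and to the serum response element were not found in any window of these genes. These matches describe letters and were not set against binding data. The shares given are over all windows and not over windows of like G and C content.

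The recovered barcode counts above the floor summed to between 641790 and 1081646 per sample. The samples went with their labels in *Akt1*, which averaged 555 ± 28.8 normalized counts in AKT Cre/NRAS siRNA and 388 ± 47.9 in AKT Cre/NRAS SCR, against 18331 ± 208 in AKT/NRAS siRNA and 19831 ± 507 in AKT/NRAS SCR (SD, n = 3 each). *Dusp4* averaged 4023 ± 221 in AKT Cre/NRAS siRNA, against 5556 ± 963 in AKT Cre/NRAS SCR, and 370.1 ± 19.7 in AKT/NRAS siRNA, against 1228 ± 43.8 in AKT/NRAS SCR. The AKT Cre/NRAS SCR group stood apart in the log2 ratio of *Rpl19* to *Polr2a*, a ribosomal protein and the largest subunit of RNA polymerase II, both read within a sample. It was 4.72 to 5.03 in AKT Cre/NRAS siRNA, 5.48, 6.36 and 6.88 in the AKT Cre/NRAS SCR replicates, 3.86 to 3.92 in AKT/NRAS siRNA and 3.81 to 3.87 in AKT/NRAS SCR. Of the fixed cell type markers, *Sox9* and *Spp1* of the liver list were above the floor in all 12 samples. In the leukocyte list, *Csf1r* was at the floor in all samples and *Cd14* was above it, and in the endothelial and mesenchymal list *Kdr*, *Pdgfrb* and *Col3a1* were at the floor. The summed level of that last list was 523 to 594 in AKT Cre/NRAS siRNA, 349.9 to 489 in AKT Cre/NRAS SCR, 142 to 165 in AKT/NRAS siRNA and 161 to 186 in AKT/NRAS SCR, nearly all of the difference being *Pdgfra*.

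The 10 genes covered about an order of magnitude in normalized count, the barcode count after scaling to reference genes, although probes differ in efficiency and levels of different genes were not compared. The plot of counts by group shows the same shape for most of them, with AKT Cre/NRAS SCR at the low end. The mean of AKT Cre/NRAS SCR was the lowest of the 4 groups in all genes but *Ezh2*, whose lowest mean was in AKT Cre/NRAS siRNA. The distance from the highest to the lowest group mean was smallest for *Whsc1l1* (1.25-fold), *Ezh2* (1.27-fold) and *Whsc1* (1.29-fold) and largest for *Kmt2d* (2.03-fold) and *Kmt2c* (2.54-fold). For *Kat2b*, *Kmt2c* and *Ezh2* both AKT/NRAS groups stood above both AKT Cre/NRAS groups with no overlap. The 2 AKT/NRAS groups overlapped each other for *Kat2b* and *Kmt2c* and were separate for *Ezh2*. The share of panel genes that separated the lines in this way was not counted. By the test given below, 48.0% of genes tested were lower in AKT Cre/NRAS under SCR and 37.9% under *Dusp4* siRNA. For *Setd2*, *Nsd1*, *Whsc1* and *Whsc1l1* the highest mean was in AKT Cre/NRAS siRNA, and for *Nsd1* and *Whsc1l1* it overlapped the next group.

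**Figure D1:**
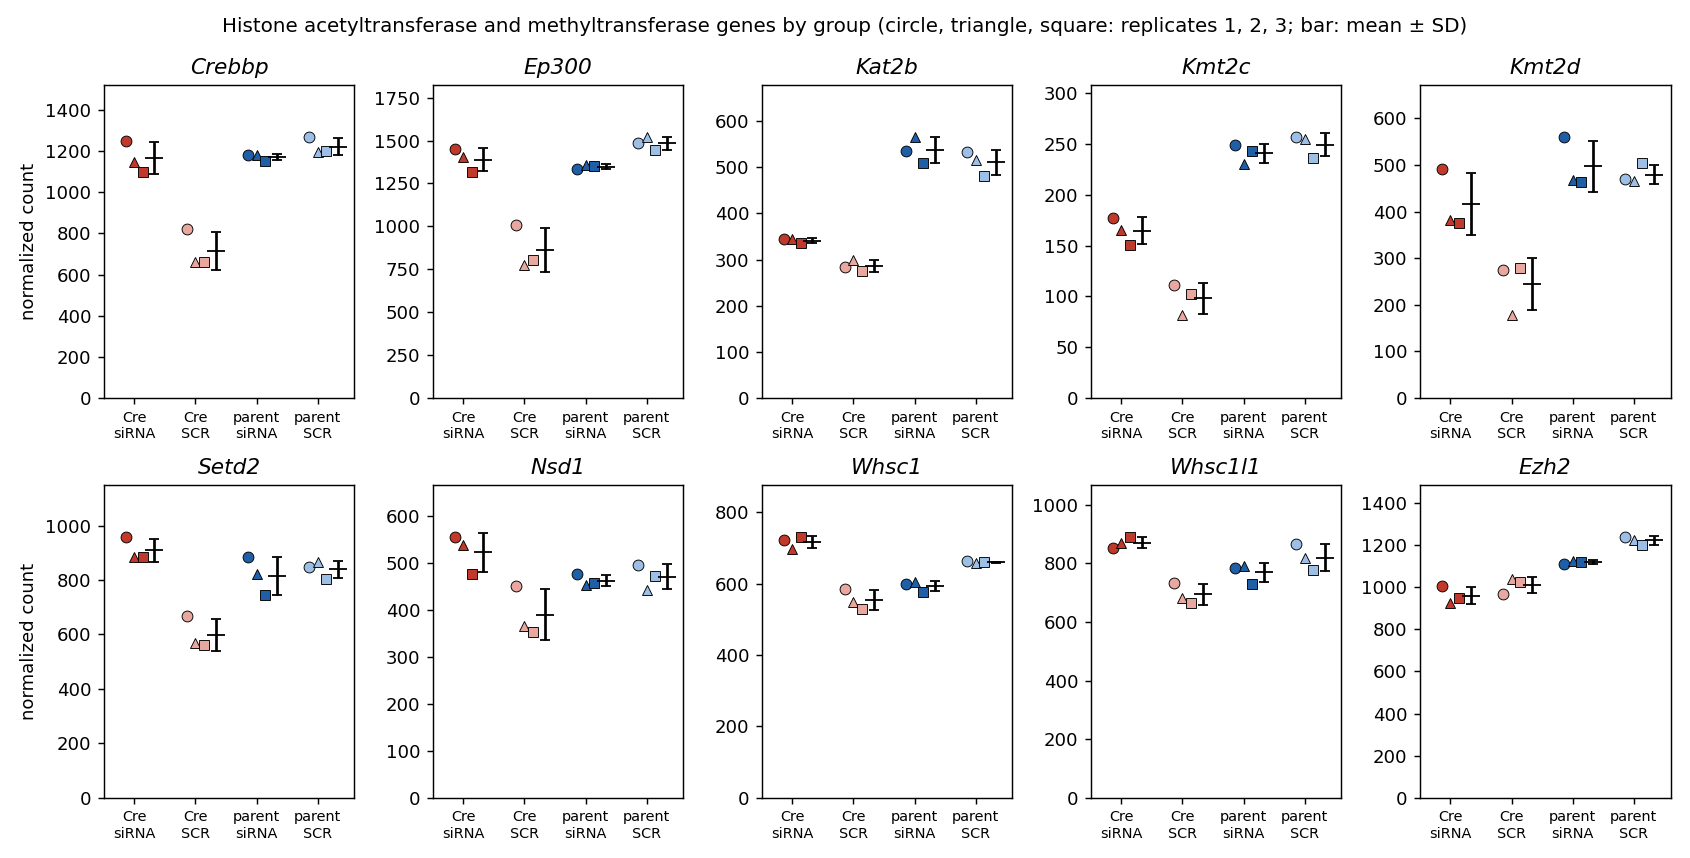
Normalized count (linear axis from 0) of each gene in AKT Cre/NRAS cells (Cre) and AKT/NRAS cells (parent) with *Dusp4* siRNA or SCR; circles, triangles and squares are replicates 1, 2 and 3, and bars give mean ± SD (n = 3). *Crebbp* averaged 1165 in AKT Cre/NRAS siRNA and 713 in AKT Cre/NRAS SCR, while *Ezh2* averaged 959 and 1011 in the same 2 groups.

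The spread between replicates was also largest in AKT Cre/NRAS SCR. The median coefficient of variation over the 10 genes was 4.77% in AKT Cre/NRAS siRNA, 11.4% in AKT Cre/NRAS SCR, 3.29% in AKT/NRAS siRNA and 4.10% in AKT/NRAS SCR. Over the 454 panel genes above the floor in every sample it was 5.61%, 12.05%, 4.97% and 4.94% in the same order of groups, so the wider spread was not confined to these genes. *Kmt2d* varied most (23.2% in AKT Cre/NRAS SCR), and in 7 of the 10 genes the highest AKT Cre/NRAS SCR value belonged to replicate 1, the sample of that group with the lowest *Rpl19* to *Polr2a* ratio. The share of panel genes whose highest value in that group was in replicate 1 was not counted.

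In AKT Cre/NRAS cells, *Dusp4* siRNA was followed by higher levels of 8 of the 10 genes, none was lower, and *Kat2b* and *Ezh2* did not pass the test (limma, Benjamini-Hochberg over 503 genes, threshold 0.05). Of all genes tested, 40.6% were called higher and 5.37% lower. The median log2 fold change was 0.52 for the 10 genes and 0.23 for all genes tested. At an unadjusted p of 0.05, 9 of the 10 genes were higher and none lower. The counts depended on the scaling. With the values as deposited, which carry no reference gene step, the same test called none of the 10 (4 higher at an unadjusted p of 0.05). Re-centred on the median of each sample, 3 were called higher and 1 lower. The silencing itself was modest here, with a log2 fold change of -0.45 for *Dusp4* (adjusted p = 0.0178, limma), past the threshold under 5 of 8 scalings. *Dusp4* lost its call without siRNA replicate 1 (adjusted p = 0.0596) or 3 (0.0674) or SCR replicate 2 (0.0677, all limma).

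Both paralogous coactivators rose. *Crebbp* read 1249.7, 1145 and 1099.8 normalized counts in the siRNA samples, against 819, 660.0 and 661 in SCR. *Ep300* read 1448, 1401 and 1315 in the siRNA samples, against 1008, 776 and 804 in SCR. In both genes the lowest siRNA sample lay above the highest SCR sample, and SCR replicate 1 was the sample nearest to the siRNA group. The log2 fold change was 0.71 ± 0.11 (SE) for *Crebbp* and 0.70 ± 0.11 for *Ep300* (adjusted p = 0.00329 for each, limma). The third acetyltransferase gene moved less. *Kat2b* read 344, 344 and 335 in the siRNA samples and 283, 299 and 274 in SCR, groups that did not overlap, with a log2 fold change of 0.26 (95% interval 0.03 to 0.48) and an adjusted p of 0.0572 (limma). Without SCR replicate 1 it passed (0.25, adjusted p = 0.0441, limma).

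The MLL3 and MLL4 genes had the highest fold changes of the 10. *Kmt2c* read 177, 166 and 151 normalized counts in the siRNA samples, against 111, 81.5 and 103 in SCR, a log2 fold change of 0.75 ± 0.14 (adjusted p = 0.00460, limma). *Kmt2d* read 492, 381 and 375 in the siRNA samples, against 274, 179 and 279.8 in SCR, a log2 fold change of 0.78 ± 0.18 (adjusted p = 0.00751, limma). The groups did not overlap for either gene, and their replicates were wider apart than those of the other genes. Without siRNA replicate 1, the highest of its group, *Kmt2d* had a log2 fold change of 0.66 and no longer passed (adjusted p = 0.0507, limma).

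*Setd2*, the gene body methyltransferase, read 958, 886 and 883 normalized counts in the siRNA samples, against 667, 567 and 562 in SCR. The groups were separate and the log2 fold change was 0.61 ± 0.10 (adjusted p = 0.00329, limma). The 3 NSD genes moved by smaller amounts. *Nsd1* read 556, 538 and 476 in the siRNA samples and 452, 365 and 352 in SCR (log2 fold change 0.43 ± 0.12, adjusted p = 0.0185, limma). *Whsc1* read 722, 698 and 731 in the siRNA samples and 586, 547 and 528 in SCR (0.37 ± 0.09, adjusted p = 0.00887, limma). *Whsc1l1* read 852, 868 and 890.2 in the siRNA samples and 734, 683 and 664 in SCR (0.33 ± 0.09, adjusted p = 0.0138, limma). None of the 3 overlapped between the groups. *Nsd1* lost its call without siRNA replicate 1 (adjusted p = 0.0873), siRNA replicate 2 (0.0729) or SCR replicate 2 (0.0668), and *Whsc1l1* without siRNA replicate 1 (0.0507), 2 (0.0648) or 3 (0.0628) or SCR replicate 2 (0.0559), all by limma.

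*Ezh2* was the exception. It read 1004, 924 and 951 normalized counts in the siRNA samples and 967, 1039 and 1026 in SCR, groups that overlapped, with a log2 fold change of -0.07 (95% interval -0.26 to 0.11, adjusted p = 0.488, limma). Altogether 9 of the 10 genes were higher in AKT Cre/NRAS siRNA with no overlap between the groups, as were 50.7% of all genes tested, and none was lower with no overlap, against 9.34% of all genes tested. Relative to the panel median of 0.23, the log2 fold changes were 0.46 to 0.55 higher for *Crebbp*, *Ep300*, *Kmt2c* and *Kmt2d*, 0.37 higher for *Setd2*, 0.10 to 0.20 higher for the NSD genes, 0.023 higher for *Kat2b* and -0.31 for *Ezh2*. The *Rpl19* to *Polr2a* ratio, which was higher in all 3 SCR samples, moved with these differences, and its part in them was not tested. *Rpl19* is itself among the 15 reference genes of the main scaling and *Polr2a* is not, so the ratio and the scaled values are not independent. After scaling, *Rpl19* averaged 63590 ± 21069 in AKT Cre/NRAS SCR and 40204.5 ± 1235 in AKT Cre/NRAS siRNA (SD, n = 3 each). With SCR replicates 2 and 3 both left out, a fit in which the lone SCR sample is assumed to vary like the siRNA samples, 7 of the 10 genes were called higher, as were 21.1% of 497 genes tested, and *Nsd1* had a log2 fold change of 0.21 (adjusted p = 0.191, limma).

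**Figure D2:**
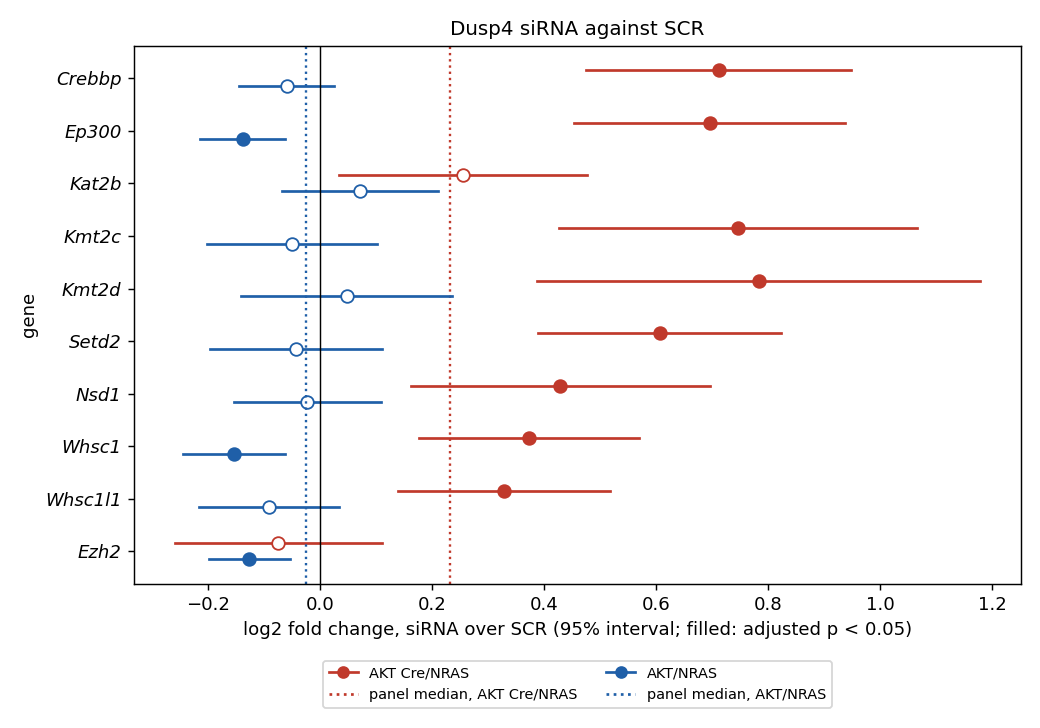
Log2 fold change (x axis) of each gene (y axis) for *Dusp4* siRNA over SCR in AKT Cre/NRAS (red) and AKT/NRAS (blue), with 95% intervals from limma; filled points passed an adjusted p of 0.05 and dotted lines mark the median of all genes tested (0.23 in AKT Cre/NRAS and -0.03 in AKT/NRAS). In AKT Cre/NRAS 8 genes were called higher, and in AKT/NRAS 3 were called lower.

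All scalings but quantile normalization differ by a factor per sample, which moves all 10 values together, and 8 scalings were compared. Under them the panel median of this comparison ran from -0.10 (re-centred on the median of each sample) to 0.67 (the 5 reference genes ranked first). *Crebbp*, *Ep300* and *Setd2* passed under 7 of the 8 scalings, all but the values as deposited, with log2 fold changes of 0.36 to 1.16, 0.34 to 1.15 and 0.25 to 1.06. *Kmt2c* passed under 6 (0.39 to 1.19). *Kmt2d* (0.43 to 1.23), *Nsd1* (0.07 to 0.88), *Whsc1* (0.02 to 0.82) and *Whsc1l1* (-0.03 to 0.78) passed under 4 each. *Kat2b* passed under 2 (-0.10 to 0.71). *Ezh2* ran from -0.43 to 0.38 and passed under 1, re-centring, in which it was called lower (adjusted p = 0.0151, limma).

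**Figure D3:**
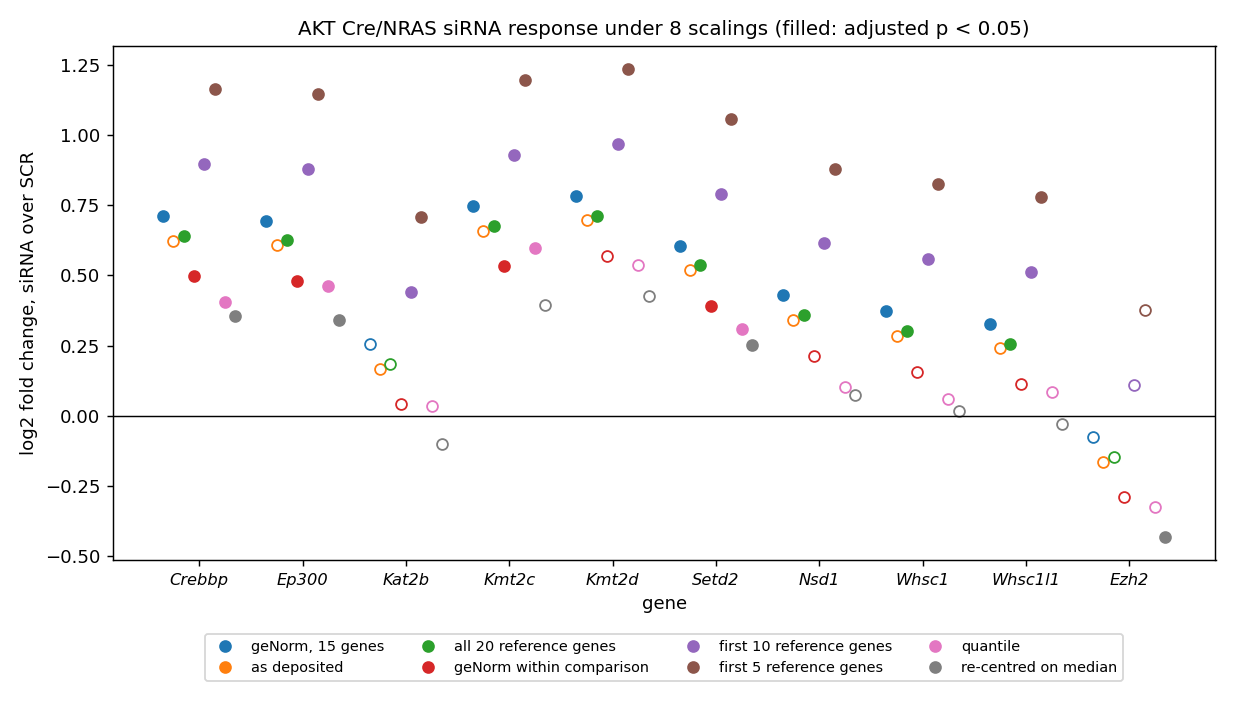
Log2 fold change of each gene for *Dusp4* siRNA over SCR in AKT Cre/NRAS (y axis) under 8 scalings (colours), filled where the adjusted p was under 0.05. *Crebbp* ran from 0.36 to 1.16 and *Ezh2* from -0.43 to 0.38. All scalings but quantile normalization differ by a factor per sample, which shifts all genes alike and leaves their order as it was. With quantile normalization *Kmt2c* and *Kmt2d*, *Crebbp* and *Ep300*, and *Whsc1* and *Whsc1l1* changed places.

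A ratio of 2 genes within a sample does not depend on a factor per sample, so each gene was also set against *Ezh2*. *Ezh2* was taken as denominator after its values had been seen, and the ratios are given without a test. The log2 ratio to *Ezh2* was higher in AKT Cre/NRAS siRNA than in AKT Cre/NRAS SCR, with no overlap, for all 9 other genes. The same held for 55.0% of the 453 other panel genes above the floor in every sample, and 6.18% were lower with no overlap. For *Crebbp* it was 0.32, 0.31 and 0.21 in the siRNA samples and -0.24, -0.65 and -0.63 in SCR. For *Setd2* it was -0.07, -0.06 and -0.11 in the siRNA samples and -0.54, -0.87 and -0.87 in SCR. The difference of the means was largest for *Kmt2d* (0.86), *Kmt2c* (0.83), *Crebbp* (0.79) and *Ep300* (0.77), intermediate for *Setd2* (0.68), *Nsd1* (0.51), *Whsc1* (0.45) and *Whsc1l1* (0.40), and smallest for *Kat2b* (0.33). Such a ratio shows that 2 genes changed unequally and not which of them changed.

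**Figure D4:**
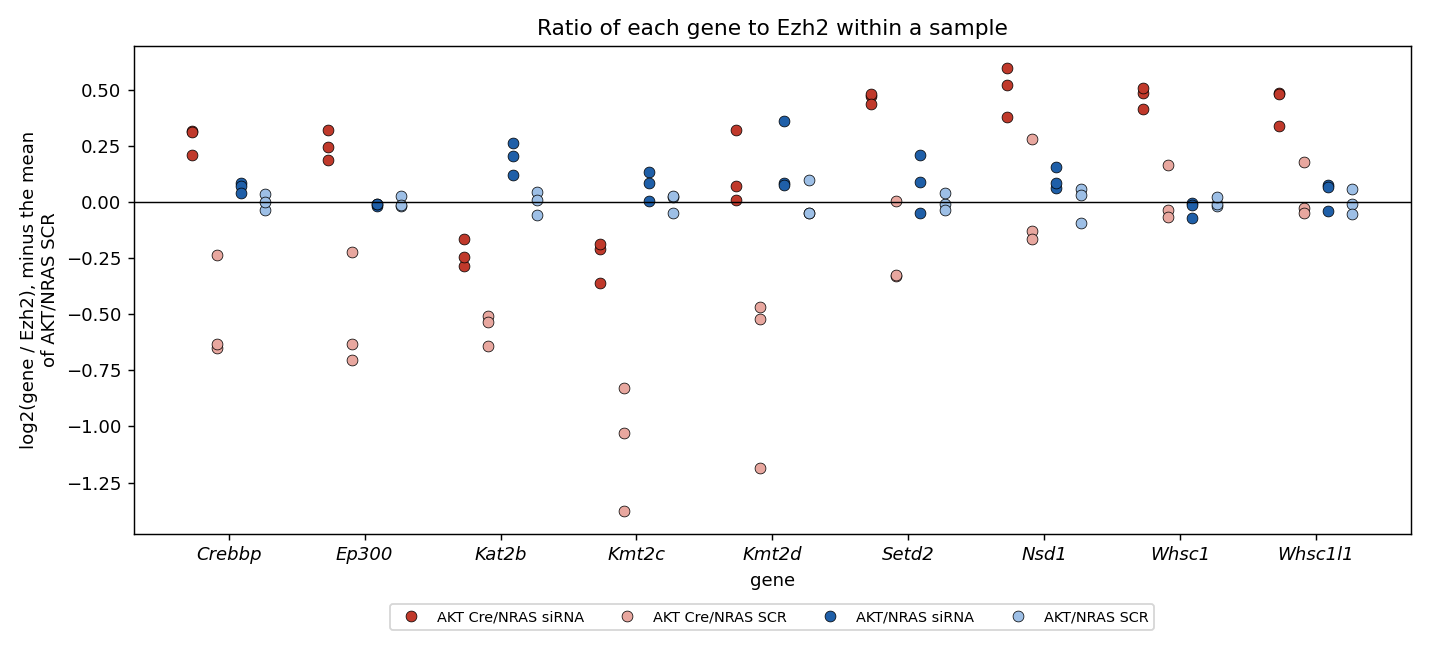
Log2 ratio of each gene to *Ezh2* within a sample (y axis, minus the mean of AKT/NRAS SCR for that gene), 1 point per sample, by group. The AKT Cre/NRAS siRNA points lie above the AKT Cre/NRAS SCR points for all 9 genes, by 0.33 (*Kat2b*) to 0.86 (*Kmt2d*) between means.

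Ratios between related genes were read within samples for 4 pairs. The log2 ratio of *Crebbp* to *Ep300* averaged -0.25 ± 0.04 in AKT Cre/NRAS siRNA, -0.27 ± 0.03 in AKT Cre/NRAS SCR, -0.20 ± 0.03 in AKT/NRAS siRNA and -0.28 ± 0.06 in AKT/NRAS SCR (SD, n = 3 each). That of *Whsc1* to *Whsc1l1* averaged -0.28 ± 0.04, -0.33 ± 0.005, -0.38 ± 0.03 and -0.31 ± 0.08 in the same order of groups. That of *Nsd1* to *Whsc1* averaged -0.46 ± 0.14, -0.51 ± 0.12, -0.36 ± 0.05 and -0.49 ± 0.08, again in that order. The ratio of *Kmt2c* to *Kmt2d* was -1.47 to -1.20 in AKT Cre/NRAS siRNA and -1.45 to -1.14 in AKT Cre/NRAS SCR, against -1.17 to -0.93 in AKT/NRAS siRNA and -1.09 to -0.87 in AKT/NRAS SCR. Within each treatment the 2 lines did not overlap in it, and how often ratios of other panel genes separate the lines was not counted.

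In AKT/NRAS cells, where *Dusp4* was silenced more deeply, the 10 genes moved little. None was called higher (none at an unadjusted p of 0.05, limma) and 3 were called lower, where 5.44% of 496 genes tested were called higher and 11.9% lower. *Ep300* read 1333, 1358 and 1353 normalized counts in the siRNA samples, against 1489, 1520.0 and 1443 in SCR (log2 fold change -0.14 ± 0.03, adjusted p = 0.0267, limma). *Whsc1* read 598, 603 and 577 in the siRNA samples, against 662, 657 and 659 in SCR (-0.15 ± 0.04, adjusted p = 0.0354, limma). *Ezh2* read 1111, 1126 and 1121 in the siRNA samples, against 1239, 1227 and 1201 in SCR (-0.13 ± 0.03, adjusted p = 0.0326, limma). In these 3 genes and in *Crebbp* (-0.06, adjusted p = 0.315) the groups did not overlap, all 4 being lower. Of all genes tested, 23.2% were lower and 11.5% higher without overlap. For the other 6 genes the groups overlapped and the 95% intervals of the log2 fold changes lay between -0.22 and 0.24. With the values as deposited the direction turned, and 5 of the 10 were called higher and none lower. With 1 of the 6 samples left out, *Ep300* kept its call only without siRNA replicate 1 or SCR replicate 3 (adjusted p 0.0657 to 0.112 otherwise) and *Ezh2* only without SCR replicate 3 (0.0509 to 0.112 otherwise). *Whsc1* lost its call whichever sample was left out (0.0502 to 0.113, all limma).

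The response to *Dusp4* siRNA differed between the lines for 8 of the 10 genes by the interaction term, all of them more positive in AKT Cre/NRAS (limma over all 12 samples), where 40.6% of 525 genes tested were higher and 4.76% lower. The difference was 0.83 ± 0.12 (SE) for *Ep300*, 0.80 ± 0.16 for *Kmt2c*, 0.77 ± 0.11 for *Crebbp*, 0.74 ± 0.23 for *Kmt2d* and 0.65 ± 0.11 for *Setd2* on the log2 scale. It was 0.53 ± 0.07 for *Whsc1*, 0.45 ± 0.14 for *Nsd1* and 0.42 ± 0.08 for *Whsc1l1*. The adjusted p of these 8 ran between 0.00128 and 0.0266. *Kat2b* (0.18, 95% interval -0.01 to 0.38) and *Ezh2* (0.05, -0.09 to 0.20) did not pass. *Kmt2d* lost its call without AKT Cre/NRAS siRNA replicate 1 (adjusted p = 0.0609), AKT/NRAS siRNA replicate 3 (0.0608) or AKT/NRAS SCR replicate 3 (0.0548), and *Nsd1* without AKT Cre/NRAS siRNA replicate 1 (0.0510) or AKT/NRAS SCR replicate 1 (0.0526, all limma). With the values as deposited none of the 10 passed, and none had an unadjusted p under 0.05.

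Under SCR, AKT Cre/NRAS cells had lower levels than AKT/NRAS cells for 9 of the 10 genes, where 48.0% of 515 genes tested were lower and 28.9% higher. The median log2 difference was -0.64 for the 10 genes and -0.22 for all genes tested. The same AKT Cre/NRAS SCR samples serve as control in the siRNA comparison above, so the 2 results are not independent. *Kmt2c* differed most, with 111, 81.5 and 103 normalized counts in AKT Cre/NRAS SCR, against 257, 255 and 237 in AKT/NRAS SCR (log2 difference -1.34 ± 0.13, adjusted p = 2.23e-05, limma). *Kmt2d* followed, with 274, 179 and 279.8 in AKT Cre/NRAS SCR and 469, 465 and 504 in AKT/NRAS SCR (-0.997 ± 0.17, adjusted p = 0.000643, limma). The acetyltransferase genes were close to each other, at -0.83 ± 0.09 for *Kat2b*, -0.79 ± 0.11 for *Ep300* and -0.78 ± 0.10 for *Crebbp* (adjusted p at most 0.000152, limma). *Setd2* differed by -0.49 ± 0.09 (adjusted p = 0.00108), *Ezh2* by -0.27 ± 0.07 (0.00568), *Whsc1* by -0.25 ± 0.08 (0.0146) and *Whsc1l1* by -0.24 ± 0.08 (0.0228, all limma). *Nsd1* did not pass (-0.28, adjusted p = 0.0506) and its groups overlapped. *Whsc1* lost its call without AKT/NRAS SCR replicate 2 (adjusted p = 0.0603), *Whsc1l1* without AKT Cre/NRAS SCR replicate 2 (0.0687) or AKT/NRAS SCR replicate 1 (0.0928) or 2 (0.0785), and *Nsd1* passed without AKT Cre/NRAS SCR replicate 1 (-0.39, 0.00275). With the values as deposited only *Kmt2c* was called lower, and *Kmt2c* was also the only one of the 10 to pass under all 8 scalings (-1.86 to -0.84).

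Under *Dusp4* siRNA the 2 lines were closer in most of these genes in the main scaling. There 3 were higher and 3 lower in AKT Cre/NRAS, where 36.6% of 522 genes tested were higher and 37.9% lower. With quantile normalization *Kat2b* was at -0.63 under siRNA and -0.54 under SCR, and *Ezh2* at -0.27 and 0.0096. *Setd2*, *Nsd1*, *Whsc1* and *Whsc1l1* were also further apart under siRNA with it, and *Crebbp*, *Ep300*, *Kmt2c* and *Kmt2d* closer. The share of panel genes that came closer was not counted. *Kat2b* read 344, 344 and 335 normalized counts in AKT Cre/NRAS siRNA, against 535, 565 and 509 in AKT/NRAS siRNA (log2 difference -0.65 ± 0.05, adjusted p = 2.13e-05, limma). *Kmt2c* read 177, 166 and 151 in AKT Cre/NRAS siRNA, against 249, 231 and 243 in AKT/NRAS siRNA (-0.55 ± 0.08, adjusted p = 0.000481, limma). *Ezh2* was the third lower gene, at -0.22 ± 0.04 (adjusted p = 0.00164, limma). The higher genes were the NSD family. *Whsc1* read 722, 698 and 731 in AKT Cre/NRAS siRNA, against 598, 603 and 577 in AKT/NRAS siRNA (0.27 ± 0.04, adjusted p = 0.000577, limma), *Whsc1l1* differed by 0.18 ± 0.04 (adjusted p = 0.00813) and *Nsd1* by 0.17 ± 0.07 (adjusted p = 0.0483), the last with overlapping groups. *Crebbp* (-0.01, 95% interval -0.13 to 0.11) and *Ep300* (0.04, -0.06 to 0.14) overlapped between the lines. *Kmt2d* (-0.26, -0.56 to 0.03) and *Setd2* (0.16, -0.0063 to 0.32) did not pass, although *Kmt2d* passed without AKT Cre/NRAS siRNA replicate 1 (-0.39, adjusted p = 0.0113) and *Setd2* without AKT/NRAS siRNA replicate 1 (0.22, adjusted p = 0.0226, both limma). Under other scalings *Kmt2d* was called lower re-centred (adjusted p = 0.0109), with quantile normalization (0.0356) and with the 10 reference genes ranked first (0.0455), and *Setd2* higher with all 20 reference genes (0.00575, all limma). *Kat2b* and *Kmt2c* were called lower and *Whsc1* higher under all 8 scalings, and *Ezh2* lower under 7, whereas *Nsd1* passed under 3 and lost its call when any of 5 of the 6 samples was left out (adjusted p 0.0612 to 0.139, limma).

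**Figure D5:**
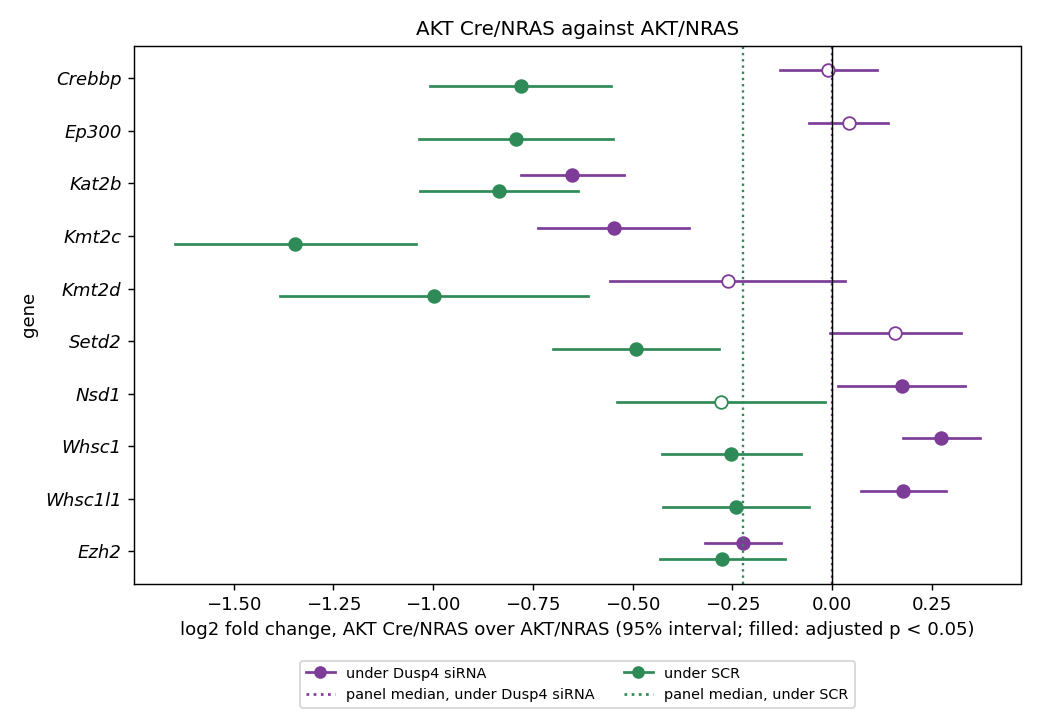
Log2 difference (x axis) of each gene (y axis) for AKT Cre/NRAS over AKT/NRAS under *Dusp4* siRNA (purple) and under SCR (green), with 95% intervals from limma; filled points passed an adjusted p of 0.05 and dotted lines mark the median of all genes tested. *Kmt2c* was at -0.55 under siRNA and -1.34 under SCR, while *Crebbp* was at -0.01 under siRNA and -0.78 under SCR.

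Other chromatin genes of the panel, 42 in 7 lists, were read in the same comparisons. In AKT Cre/NRAS, *Dusp4* siRNA was followed by higher levels of 22 of the 38 that could be tested and lower levels of 2, where 40.6% of all genes tested were higher and 5.37% lower. Their median log2 fold change was 0.36, against 0.23 for all genes tested. With the values as deposited none of them was called. Of the SWI/SNF nucleosome remodelling subunits 4 of 5 were higher, with *Arid1a* at 0.87, *Arid1b* at 0.74 and *Pbrm1* at 0.57. A mixed list of complex subunits, CREB factors, MLL fusion partners and coactivator genes had 5 of 8 higher. Among them were *Asxl1*, a Polycomb-associated protein, at 0.69, *Mllt4*, the gene of the junctional protein afadin and a fusion partner of a related MLL gene, at 0.58, and *Med12*, a Mediator subunit, at 0.53. Among deacetylases and corepressors, the opposing activity to the acetyltransferases, 6 of 10 were higher and none lower, with *Hdac6*, a largely cytoplasmic deacetylase, at 0.66, *Sin3a* at 0.52 and the nuclear receptor corepressor *Ncor1* at 0.47. The demethylase *Kdm5c* was higher (0.53) and *Kdm6a*, which removes the mark that *Ezh2* writes, did not pass (0.27, adjusted p = 0.0632, limma). Of the DNA methylation enzymes and other chromatin genes 6 of 9 were higher, with *Dnmt3a* and *Dnmt1* at 0.57 and *Atrx* at 0.55. *Suv39h2*, the only other histone methyltransferase tested, was at -0.02 (adjusted p = 0.920).

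Of the 3 tested histone H3 genes of the list, 2 were lower and none higher. *Hist1h3b*, a replication-dependent H3 gene, averaged 26706 normalized counts in AKT Cre/NRAS siRNA and 38704 in AKT Cre/NRAS SCR (-0.54, adjusted p = 0.0198, limma). *H3f3a*, a replacement H3 gene, averaged 16177 in AKT Cre/NRAS siRNA and 24109 in AKT Cre/NRAS SCR (-0.54, adjusted p = 0.0336, limma). *Hist2h3c2* was at -0.46 (adjusted p = 0.155, limma). *Hist2h3b*, an H3 gene of the panel that the list did not hold and that was added after its values were seen, was at -0.51 (adjusted p = 0.0354, limma), passed under 2 of 8 scalings and did not move with quantile normalization. The 3 genes of the list had negative values under all 8 scalings, with *Hist1h3b* at -0.89 to -0.085 and past the threshold in 3 of them, and *H3f3a* at -0.89 to -0.082 and past it in 2. In AKT/NRAS cells *Hist1h3b* (0.04) and *H3f3a* (-0.01) did not pass. Histone genes are short and have near-identical copies, and how far a probe reads the copies is not given in the sources used here.

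Across the 12 samples most of the genes ran together, *Ezh2* less so, and *Kat2b* and *Whsc1* less so with some of the others. Pearson's r of log2 normalized counts ranged between 0.16 and 0.99 over the 36 pairs without *Ezh2* (median 0.82), and between -0.10 and 0.80 over the 9 pairs with it (median 0.39). The lowest values without *Ezh2* were those of *Kat2b* with *Whsc1* (0.16), *Nsd1* (0.33) and *Whsc1l1* (0.33). Next came those of *Whsc1* with *Kmt2c* (0.42) and *Kmt2d* (0.52), and that of *Kat2b* with *Setd2* (0.54). The highest with *Ezh2* was that of *Kat2b* (0.80). The samples share 4 groups and the scaling, so these values are a description. Among 453 other genes, the 2 most alike were *Fn1* and *Ep300* for *Crebbp* (0.99 each), *Crebbp* and *Atrx* for *Ep300* (0.99 each), *Ccnd2* and *Notch1* for *Kat2b* (0.99 each), *Cbl* and *Nf1* for *Kmt2c* (0.996 and 0.99), *Stk4* and *Asxl1* for *Kmt2d* (0.95 and 0.94), and *Ptch1* and *Atrx* for *Setd2* (0.95 each). They were *Pbrm1* and *Ptch1* for *Nsd1* (0.95 and 0.93), *Whsc1l1* and *Map3k1* for *Whsc1* (0.94 and 0.91), *Whsc1* and *Setd2* for *Whsc1l1* (0.94 and 0.91), and *Hras* and *Cacna2d1* for *Ezh2* (each 0.94).

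By gene order in GRCm38.p6, each NSD gene lies within 2 genes of an FGF receptor gene that is also on the panel, *Fgfr4* beside *Nsd1*, *Fgfr3* near *Whsc1* and *Fgfr1* near *Whsc1l1*. In AKT Cre/NRAS the log2 fold change for *Dusp4* siRNA was 0.42 for *Fgfr4* (adjusted p = 0.0457), 0.25 for *Fgfr3* (0.136) and 0.27 for *Fgfr1* (0.136, all limma), beside 0.43, 0.37 and 0.33 for the NSD gene of each pair. Between the lines under SCR *Fgfr4* was at 1.62 and *Fgfr1* at 1.24, beside -0.28 for *Nsd1* and -0.24 for *Whsc1l1*. *Fgfr1* was at the common floor of 27.1 in all AKT/NRAS samples, so the size of its difference depends on that floor. *Fgfr3* was at -0.07 (adjusted p = 0.625, limma), beside -0.25 for *Whsc1*. The differences within pairs were not tested. *Rbx1*, next to *Ep300*, was at -0.11 in the AKT Cre/NRAS siRNA comparison (adjusted p = 0.524), and *Cul1*, next to *Ezh2*, at 0.02 (0.894, both limma).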

How the data were processed

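Expression was measured by NanoString® nCounter in 12 samples (4 groups of 3; GEO's source labels gave each group, and the run number in the labels tied each table column to its sample). The authors processed the panel in nSolver. Each deposited value is the signal of a gene, its barcode count multiplied by the positive control factor of the sample, with values at or under 20 set to 20 and no reference gene scaling. Here values were scaled by geNorm over all 12 samples to 15 of 20 reference genes, raised to a common floor of 27.1, and log2 transformed after adding 1. *Hdac3* and *Sap130*, both chromatin genes, are among the 15, as is *Rpl19*, while *Polr2a* is not. Genes above the floor in at least 1 sample of a comparison were tested with limma 3.58.1 in R 4.3.3 (eBayes with intensity trend, only the samples compared, no replicate block), with Benjamini-Hochberg adjustment over all genes tested and a threshold of 0.05. No count model was fitted, because counts at the floor are unknown. The floor limits precision only for low genes, and depth is given with the results.

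The rule for the 10 genes uses names only, but it and the gene lists were chosen with earlier results of these data known. Named genes were the 10 members, the 2 genes most correlated with each, and up to 3 genes of each other list with the smallest p in the AKT Cre/NRAS siRNA comparison; neighbours on the chromosome, *Ezh2* as denominator, *Rpl19*, *Polr2a* and *Hist2h3b* were added after values were seen. Replicate numbers come from the source labels. Deviations of same-numbered samples correlated weakly in the AKT Cre/NRAS siRNA comparison (r = 0.19, 0.10 and 0.18) and between the lines under siRNA (0.21, 0.04 and 0.17). In the remaining comparisons of groups r was -0.07 to 0.04. Values this low do not show whether the numbers pair the samples. With 3 samples against 3 an exact permutation test cannot go below p = 0.1. In simulated data for the AKT Cre/NRAS siRNA comparison (503 genes), 64.2% of 1.25-fold, 92.5% of 1.5-fold and 98.5% of 2-fold changes were found. Of the calls, 4.47% were false. Whether these rates hold under other scalings, or with a scaling error shared by all genes of a sample, was not tested. Their dependence on the unequal spread (panel median coefficient of variation 5.61% in AKT Cre/NRAS siRNA, 12.05% in AKT Cre/NRAS SCR) was not tested either. The study's methods call the replicates biological and do not say more of how they were separated. P-values measure the spread between these samples, and fewer cells of a kind and less RNA per cell cannot be told apart. Alternatives were 7 other scalings, other filters, pseudocounts, adjustments and fits, and leaving out samples (where that left 1 sample in a group, it was assumed to vary like the others). A planned description of protein length was not run, because no protein table was used here. Python 3.11.15 with matplotlib 3.10.9 drew the figures.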

Additional observations from a re-analysis of the deposited data

Results flagged for a closer look

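For 8 of the 10 genes the response to *Dusp4* siRNA differed between the 2 lines by the interaction term of limma. All 8 were higher, where 40.6% of 525 genes tested were higher and 4.76% lower. With the values as deposited none of the 10 passed. The difference, AKT Cre/NRAS minus AKT/NRAS on the log2 scale, was 0.77 for *Crebbp*, 0.83 for *Ep300*, 0.80 for *Kmt2c*, 0.74 for *Kmt2d*, 0.65 for *Setd2*, 0.45 for *Nsd1*, 0.53 for *Whsc1* and 0.42 for *Whsc1l1*. The *Rpl19* to *Polr2a* ratio of the AKT Cre/NRAS SCR samples, 5.48 to 6.88 against at most 5.03 in all other samples, moves with these differences, and its part in them was not tested. *Rpl19* is itself a reference gene of the main scaling, so the ratio and the scaled values are not independent. With AKT Cre/NRAS SCR replicates 2 and 3 left out together, a fit in which the lone sample of that group is assumed to vary like the other groups, 6 of the 10 genes were called higher, as were 29.1% of 522 genes tested, and *Kmt2d* (0.54, adjusted p = 0.0619) and *Nsd1* (0.23, adjusted p = 0.162) did not.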

How the results depend on the processing

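The main limit is the scaling of the deposited values. The 10 genes move with the whole panel, the AKT Cre/NRAS SCR samples differ most among themselves, and the main scaling gives more calls in AKT Cre/NRAS than 4 of the 7 others. Statements that held under all 8 scalings are few: lower *Kmt2c* in AKT Cre/NRAS under SCR, and under siRNA lower *Kat2b* and *Kmt2c* and higher *Whsc1*. Below, counts are of the 10 genes, changes are log2 fold changes, and the cause of a change was not tested. Shares over all genes are not given for most settings below. Where they are missing, the counts do not show whether the 10 genes differ from the panel.

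In the AKT Cre/NRAS siRNA comparison, 8 genes were higher in the main setting. The count was 0 with the values as deposited, 3 re-centred on the median (with 1 lower), 4 with quantile normalization, 4 with reference genes chosen within the comparison, 5 without the filter, which tests more genes, and 4 with Benjamini-Yekutieli adjustment. It was 5 to 9 with 1 sample left out, the lowest without siRNA replicate 1. *Kat2b* turned to -0.10 and *Whsc1l1* to -0.027 re-centred. *Ezh2* turned to 0.11 with the 10 reference genes ranked first and to 0.38 with 5, where *Dusp4* itself turned to 0.00098. Over all genes, 204 were called higher and 27 lower, against 0 and 1 with the values as deposited and 32 and 136 re-centred.

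In the AKT/NRAS siRNA comparison, 3 genes were lower in the main setting. The values as deposited gave 5 higher and 0 lower, and all genes tested moved with them (panel median 0.30, against -0.03). There *Crebbp* turned to 0.28, *Ep300* to 0.20, *Kmt2c* to 0.28, *Setd2* to 0.29, *Nsd1* to 0.31, *Whsc1* to 0.18, *Whsc1l1* to 0.24 and *Ezh2* to 0.21. The count of lower genes was 0 re-centred, 0 with quantile normalization, 0 with Benjamini-Yekutieli adjustment, 0 with one fit over all 4 groups, 1 without the intensity trend and 0 to 2 with 1 sample left out. Re-centred, *Kmt2c* was at 0.0065, *Setd2* at 0.015 and *Nsd1* at 0.035. With quantile normalization *Crebbp* was at 0.013, *Kmt2c* at 0.011, *Setd2* at 0.034 and *Nsd1* at 0.010. With 1 sample left out, *Kmt2d* ran from -0.041 to 0.095, *Setd2* from -0.10 to 0.023 and *Nsd1* from -0.066 to 0.017.

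Between the lines under SCR, 9 genes were lower, against 1 with the values as deposited, 5 re-centred and 5 with quantile normalization. With the values as deposited *Setd2* was at 0.015, *Nsd1* at 0.23, *Whsc1* at 0.25, *Whsc1l1* at 0.27 and *Ezh2* at 0.23. Re-centred, *Nsd1* was at 0.079, *Whsc1* at 0.10, *Whsc1l1* at 0.12 and *Ezh2* at 0.083. With quantile normalization *Nsd1* was at 0.056, *Whsc1* at 0.087, *Whsc1l1* at 0.056 and *Ezh2* at 0.0096. Under siRNA, 3 genes were higher, against 1 with the values as deposited, 5 with all 20 reference genes, 1 re-centred, 1 with the 10 reference genes ranked first and 1 with Benjamini-Yekutieli adjustment. *Crebbp* was at 0.075 with the values as deposited, 0.092 with all 20 and 0.054 with 5 reference genes, and ran from -0.061 to 0.031 with 1 sample left out. *Ep300* was at -0.014 re-centred and -0.016 with 10 reference genes.

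For the interaction, 8 genes were higher and 0 lower, against 0 higher with the values as deposited, 3 higher and 1 lower re-centred, and 4 higher and 1 lower with quantile normalization. *Kat2b* turned to -0.24 with the values as deposited, -0.23 re-centred and -0.087 with quantile normalization. *Whsc1l1* turned to -0.0032 with the values as deposited. *Ezh2* turned to -0.37 with the values as deposited, -0.020 with all 20 reference genes, -0.36 re-centred and -0.27 with quantile normalization. Choosing reference genes over the samples of the interaction gives the main setting again.

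With the replicate number as a block, 8 genes were again higher for siRNA in AKT Cre/NRAS cells. The block changed no other call of the 10 there or in the interaction. In the other comparisons of groups the block gave 1 lower in AKT/NRAS, 10 lower between the lines under SCR, and 4 higher and 4 lower under siRNA. Over all log2 fold changes, those of *Dusp4* included, and all alternatives, 961 values kept direction and side of the threshold, 137 lost and 28 gained significance and 51 changed sign. Without counts at the floor, depth limits only genes near it, and none of the 10 was.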
